A study of Mus musculus with 7 samples.

Results

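The 6 genes described here, Trpc2, Tfap2e, Bcl11b, Meis2, Gnai2 and Gnao1, are genes of the vomeronasal sensory neuron, and were chosen by name. The libraries share 30406 listed genes, Trpc2 not among them since only some libraries list it. The levels of the 6 genes were followed in cells of the embryonic mouse nose picked by a neuronal gate: a cell needed at least 2 unique molecular identifiers (UMIs, 1 for each captured transcript) of Gap43, a growth cone protein, and at least 1 of Stmn3, a neuronal microtubule regulator. The gate took 572 of 31465 cells, and of these 316 came from wild-type noses. Co-detection of the members in 1 cell was then set against Omp, the olfactory marker protein of mature olfactory sensory neurons, and Gng8, a G protein gamma subunit of immature olfactory and of vomeronasal neurons.

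The vomeronasal organ is a paired tube at the base of the nasal septum that detects pheromones. Its sensory neurons fall into an apical class, which uses V1R receptors, the G protein alpha subunit Gnai2 and the transcription factor Meis2, and a basal class, which uses V2R receptors, the alpha subunit Gnao1 and the transcription factor Tfap2e. Bcl11b is a zinc finger factor that vomeronasal neurons need to mature and to take on their class, and Trpc2 is the cation channel that both classes use for transduction. Main olfactory sensory neurons signal through another alpha subunit, Gnal.

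Single-cell RNA sequencing had been done on whole embryonic noses at embryonic day 14.5. The WT group had 5 libraries of strain CD1 IGS, and the ProKR2iCre/R26tdTomato group had 2 libraries whose strain label joins B6;SJL-Prokr2em1(cre)Cfe with the reporter allele Gt(ROSA)26Sortm14(CAG-tdTomato)Hze/J, called Prokr2Cre 1 and Prokr2Cre 2 here. In the latter nose the Prokr2 locus, which encodes a prokineticin receptor, drives Cre, and Cre switches on the red reporter tdTomato. All noses had been dissociated with papain and collagenase and frozen before capture. Both Prokr2Cre libraries came from 1 nose, whose suspension was split by cell sorting into sorted and unsorted data sets. The labels do not say which library was sorted, so each was described singly, with no test. WT replicates 3 and 4 shared 7386 cell barcodes, against at most 34 for any other pair of libraries, so replicate 3 was left out and the remaining 4 WT captures are WT 1, WT 2, WT 4 and WT 5. The labels do not tie a capture to an animal, so the p-values given here measure only the spread between these captures.

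The 6 libraries held between 16773781 and 89800259 UMIs. Gated cells numbered 143 in WT 1, 68 in WT 2, 78 in WT 4, 27 in WT 5, 37 in Prokr2Cre 1 and 219 in Prokr2Cre 2. They made up 0.648% to 1.84% of kept cells in the WT captures, 2.07% in Prokr2Cre 1 and 19.7% in Prokr2Cre 2. The median gated cell had between 8373.5 UMIs, in WT 2, and 19354 UMIs, in Prokr2Cre 2. Of the 316 WT gated cells, 282 held at least 1 of the pan-neuronal transcripts Tubb3, Dcx, Stmn2, Elavl3 and Elavl4, and 129 of the 316 also held a UMI of the fibroblast collagens Col1a2 or Col3a1. The collagens were uneven: 60 of the 74 gated cells with neither Omp nor Gng8 held 1 of them, against 69 of 242 with either marker. The cells are therefore called gated cells and not neurons.

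Trpc2 is the defining vomeronasal channel, and its sequence is shown because all of its exonic bases are shared with neighbouring genes. In the GENCODE M21 annotation of GRCm38 (the submitters' processing notes name mm10), Trpc2 (ENSMUSG00000100254) lies on chromosome 7 from 102083116 to 102096396 on the plus strand. All 2874 of its exonic bases fall within exons of Xntrpc or Xndc1, genes joined to it by readthrough transcripts, and 2803 fall within exons of Xntrpc alone. The last 1000 exonic bases at the 3′ end, where a 3′ library reads, are all shared. The coding sequences of Trpc2 (2673 bases) and of its readthrough neighbour Xntrpc (3795 bases) are identical over their last 2659 bases. The last 120 coding bases of both, at chr7:102096132-102096251 on the plus strand, with the stop codon in capitals, read as follows.
Trpc2 and Xntrpc: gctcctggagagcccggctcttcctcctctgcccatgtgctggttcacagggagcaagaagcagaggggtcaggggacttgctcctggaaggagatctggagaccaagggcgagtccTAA

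No Trpc2 transcript was counted in these noses. The gene is listed for WT 1 and WT 4, and both had 0 UMIs in all cells, 221 gated and 14598 other. A count of 0 allows up to 1.40 counts per 1000000 UMIs (CPM) in the gated cells of WT 1 and up to 2.38 CPM in those of WT 4, taking 3 counts as the limit. The other 4 libraries list no Trpc2 row, so its level there was not analysed. Xntrpc, which carries the same bases, had 16 UMIs in the kept cells of WT 1, of which 2 were in gated cells, and 15 in WT 4, of which 0 were. Reads from the shared exons cannot be assigned to either gene, so these zeros describe the listed gene and not the channel's transcript. The part of this overlap in the zeros was not tested.

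Tfap2e (ENSMUSG00000042477, chromosome 4, 126716006 to 126736240, minus strand), the basal class factor, was detected in few cells. A total of 23 of the 31465 kept cells held a Tfap2e UMI, 28 UMIs in all, and 20 of those cells held a single one. In gated cells its level was 1.86 CPM in WT 1, 0 in WT 2, WT 4 and WT 5, 0 in Prokr2Cre 1 and 0.236 CPM in Prokr2Cre 2. By cell class, 3 of 316 WT gated cells held Tfap2e (4 UMIs, 0.465 ± 0.931 CPM, SD, n = 4 captures) and 11 of 1449 cells of the epithelium class (Epcam and Cdh1) did (15 UMIs, 0.690 ± 0.622 CPM), so these levels did not differ beyond their spread. All WT cells outside the gate had 0.0845 ± 0.0570 CPM, with a UMI in 18 of 28249 cells. The gated value rests on WT 1 alone. Of the 23 cells, 18 held the epithelial adhesion gene Epcam. Epcam was also in 222 of the 316 WT gated cells, so it does not separate epithelial from gated cells here.

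The 4 gated cells with Tfap2e differed from each other. A WT 1 cell of 7098 UMIs held Bcl11b (4 UMIs), Gnao1 (2) and Gng8 (4). Another WT 1 cell of 25359 UMIs held 2 UMIs of Tfap2e with Bcl11b (8), Gnao1 (9) and Gnai2 (3), and neither Omp nor Gng8. A Prokr2Cre 2 cell of 20440 UMIs held Bcl11b (10), Gnao1 (7), Gng8 (20) and Omp (1). These 3 cells had Gnao1 and Bcl11b and no Meis2. The remaining WT 1 cell, of 20601 UMIs, held Meis2 (8), Gnai2 (15) and Gnao1 (4) together with 11 UMIs of Col1a2 and 12 of Col3a1. With so few cells, no comparison of Tfap2e cells with other cells could be fitted.

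Gnao1 and Bcl11b were higher in gated than in other cells in every WT capture, while Meis2 was lower in 3 of 4 captures and Gnai2 did not pass the test. The 4 genes were compared by summing UMIs per capture and side and testing the sums with edgeR's quasi-likelihood test, blocked on the capture and adjusted after Benjamini and Hochberg. Over all genes, 32.1% of 15555 tested were called, 16.0% higher and 16.1% lower, so a call on its own is common in this comparison. Tfap2e was below the filter on low counts and Trpc2 is not listed in every library, so neither was tested. Of the other 4 members 2 were higher, 1 was lower and 1 was not called.

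Gnao1 (ENSMUSG00000031748, chromosome 8, 93809966 to 93969388, plus strand), the basal class alpha subunit, is also widespread in the nervous system. Its level in gated cells was 139 CPM in WT 1, 133 in WT 2, 158 in WT 4 and 79.9 in WT 5. In all other cells it was 11.5, 17.5, 27.2 and 25.0 CPM in the same order. The groups did not overlap, and WT 5 was the lowest gated value. The means were 128 ± 33.6 CPM against 20.3 ± 7.18 CPM (SD, n = 4 captures), a log2 fold change of 2.61 ± 0.24 (SE; edgeR quasi-likelihood test, adjusted p = 1.95e-05). Without cells that held Col1a2 or Col3a1 the gated mean of Gnao1 was 194 CPM. Gnao1 was detected in 199 of 316 WT gated cells. After thinning each cell to 3000 UMIs the mean share was 33.6% ± 5.61 against 5.71% of other cells, and 0 of 262 macrophage-class cells, with median depths of 8132 to 17438 UMIs, held a UMI. Prokr2Cre 1 had 101 CPM (95% Poisson interval 78.0 to 129, counting error only, as for all intervals here) and Prokr2Cre 2 had 239 CPM (224 to 254) in gated cells, against 11.3 and 23.2 CPM in other cells.

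Bcl11b (ENSMUSG00000048251, chromosome 12, 107910403 to 108003602, minus strand) was at 94.0 CPM in WT 1, 199 in WT 2, 270.2 in WT 4 and 322 in WT 5 among gated cells. Other cells had 26.2, 70.9, 126 and 90.0 CPM. Each capture was higher in its own gated cells, but the sides overlapped across captures because WT 1 was low on both. WT 1 was counted with another version of Cell Ranger than the other WT captures, and its part in this was not tested. The means were 221 ± 98.6 against 78.2 ± 41.4 CPM (SD, n = 4), and the log2 fold change was 1.42 ± 0.15 (SE; edgeR quasi-likelihood test, adjusted p = 4.34e-05). Without the capture as a block the adjusted p was 0.0601, and without cells that held Col1a2 or Col3a1 the gated mean was 367 CPM. Bcl11b was found in 179 of 316 gated cells, and in 34.5% ± 11.9 of them after thinning against 16.4% of other cells. A Bcl11b UMI was also in 3 of 262 macrophage-class cells. Prokr2Cre 1 had 198 CPM (165 to 236) and Prokr2Cre 2 had 114 CPM (104 to 125) in gated cells, against 94.3 and 79.1 CPM in others.

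Meis2 (ENSMUSG00000027210, chromosome 2, 115863064 to 116065839, minus strand), the apical class factor and a TALE homeobox gene of many embryonic tissues, was at 130.3 CPM in WT 1, 126 in WT 2, 214 in WT 4 and 105 in WT 5 among gated cells. Other cells had 123, 178, 244 and 329.9 CPM. The gated value was the lower in WT 2, WT 4 and WT 5 and slightly the higher in WT 1. The means were 144 ± 48.0 against 219 ± 89.2 CPM (SD, n = 4), and the log2 fold change was -0.65 ± 0.22 (SE; edgeR quasi-likelihood test, adjusted p = 0.041). That call was lost without the block (adjusted p = 0.153), with both other gates (0.091 and 0.0793) and without WT 2 (0.111). Without cells that held Col1a2 or Col3a1 the log2 fold change of Meis2 was -1.03 (edgeR adjusted p = 0.028). Meis2 was in 107 of 316 gated cells, and after thinning in 15.1% ± 4.87 of them against 27.4% of other cells and 2.26% of endothelial-class cells. The Prokr2Cre libraries had 60.1 CPM (42.5 to 82.5) and 16.3 CPM (12.7 to 20.6) in gated cells, against 129 and 114 CPM in others. Prokr2Cre 2 thus held the lowest gated level of Meis2 and the highest of Gnao1 among the 6 libraries.

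Gnai2 (ENSMUSG00000032562, chromosome 9, 107614125 to 107635367, minus strand), the apical class alpha subunit, also serves chemokine and other receptors in most cell types. Gated cells had 193 CPM in WT 1, 268 in WT 2, 251 in WT 4 and 329 in WT 5, and other cells 322, 277, 281 and 309. The ranges overlapped and WT 5 went the other way. The means were 260 ± 55.7 and 297 ± 22.0 CPM (SD, n = 4), and the log2 fold change of -0.37 ± 0.15 (SE) did not pass the test (edgeR quasi-likelihood, adjusted p = 0.0782). It was called lower under 5 of 13 alternatives, among them the one without WT 5 (edgeR adjusted p = 0.016) and the one without cells that held Col1a2 or Col3a1, where the gated mean was 199.7 CPM and the log2 fold change -0.86 (edgeR adjusted p = 0.00374). Gnai2 was present in 214 of 316 gated cells, or 45.3% ± 11.9 after thinning against 54.6% of other cells. In Prokr2Cre 1 and 2 gated cells had 339 CPM (295 to 387) and 168 CPM (156 to 181), against 432 and 540.2 CPM in other cells.

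**Figure D1:**
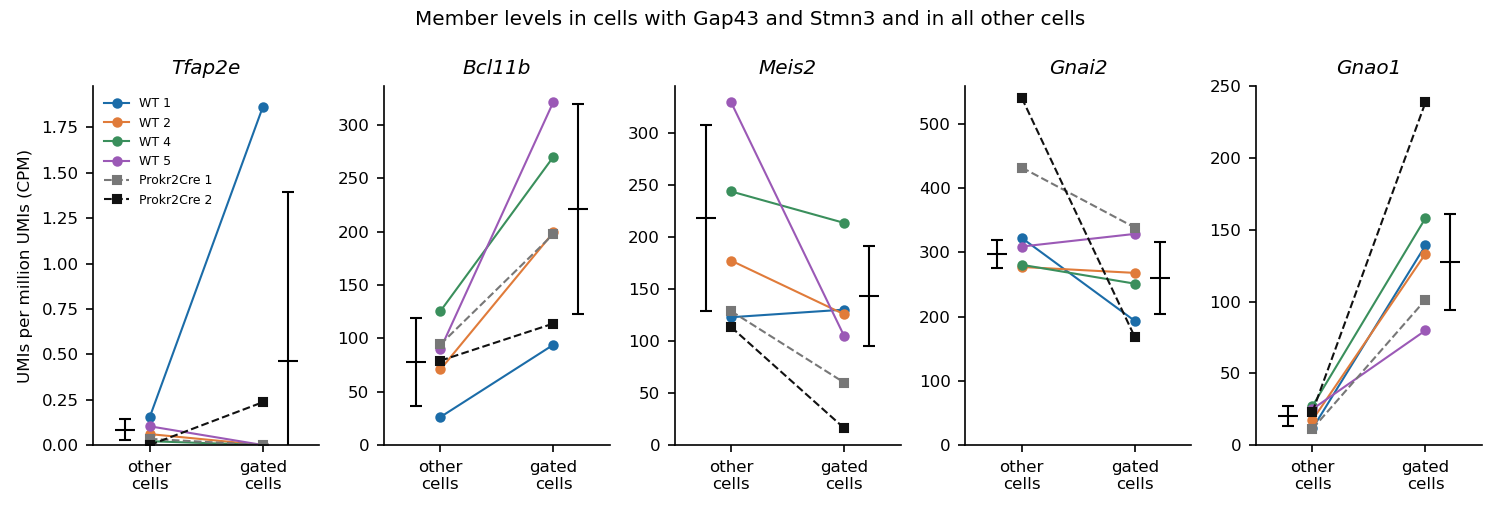
Levels of Tfap2e, Bcl11b, Meis2, Gnai2 and Gnao1 in CPM (UMIs per 1000000 UMIs) in other kept cells and in gated cells. Each line joins the sides of 1 library, solid for WT captures and dashed for Prokr2Cre libraries, and the black bars give the mean ± SD of the 4 WT captures. Every Gnao1 and Bcl11b line is higher at the gated cells, Meis2 lines are lower there in 5 of 6 libraries, and Tfap2e stays below 2 CPM.

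The members' levels across the cell classes of the nose placed them differently. Classes were set by marker genes, outside the gate, and their order is a description over the WT captures. Gnao1 was highest in gated cells, at 128 ± 33.6 CPM, then in neuronal precursors (cells with Neurog1 or Neurod1, 61.7 ± 43.7 CPM), mural cells (34.3 ± 30.7) and mesenchyme (23.2 ± 7.66). Bone (17.4 ± 19.8 CPM), epithelium (15.3 ± 9.79), glia (10.7 ± 8.67), cartilage (7.03 ± 2.00), endothelium (2.78 ± 2.80), muscle (0.302) and macrophages (0) followed. Gated cells and precursors overlapped in range, with 123 CPM in the highest precursor capture and 79.9 CPM in the lowest gated one. From mural cells down to glia each neighbour lay within the spread of the next. The mural class had only 59 cells.

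Bcl11b was highest in neuronal precursors, at 425 ± 242 CPM over 209 cells, with gated cells next at 221 ± 98.6 CPM. Those classes overlapped: WT 5 had 198 CPM in precursors and 322 in gated cells, while the other 3 captures had more in precursors. Epithelium (88.3 ± 34.0 CPM) and mesenchyme (83.9 ± 44.0) did not differ beyond their spread. Bone had 37.0 ± 26.3 CPM, muscle 27.0 ± 36.4 over 3 captures, mural cells 11.9 ± 14.8 and cartilage 10.7 ± 6.70. Glia, endothelium and macrophages were at 3.60, 3.18 and 2.14 CPM, too low to be told from free RNA.

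Meis2 was highest in epithelium and mesenchyme. Epithelium held 500 ± 193 CPM, between 258 and 707 CPM by capture, and every capture's epithelium was above its gated cells. Mesenchyme (205 ± 88.4 CPM), gated cells (144 ± 48.0) and neuronal precursors (101 ± 25.9) followed, with neighbours overlapping. Bone (93.4 ± 72.3 CPM), macrophages (56.1 ± 37.2), mural cells (52.8 ± 57.4) and cartilage (47.3 ± 19.3) came next and overlapped as well. Glia (9.33 ± 10.2 CPM), endothelium (8.17 ± 7.41) and muscle (3.80) were lowest.

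Gnai2 was present in every class. Endothelium led with 1236 ± 276 CPM and macrophages followed with 697 ± 33.4 CPM, and neither overlapped with any class below it. Glia (338 ± 39.0 CPM), mural cells (337 ± 62.3), bone (316 ± 40.8), mesenchyme (295 ± 14.1) and gated cells (260 ± 55.7) overlapped. Epithelium (216 ± 13.8 CPM), cartilage (210 ± 25.5), neuronal precursors (184 ± 53.7) and muscle (166 ± 5.95) were lowest, and the first 3 of these still overlapped with gated cells. No class without Gnai2 could serve as a background for its share of cells.

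**Figure D2:**
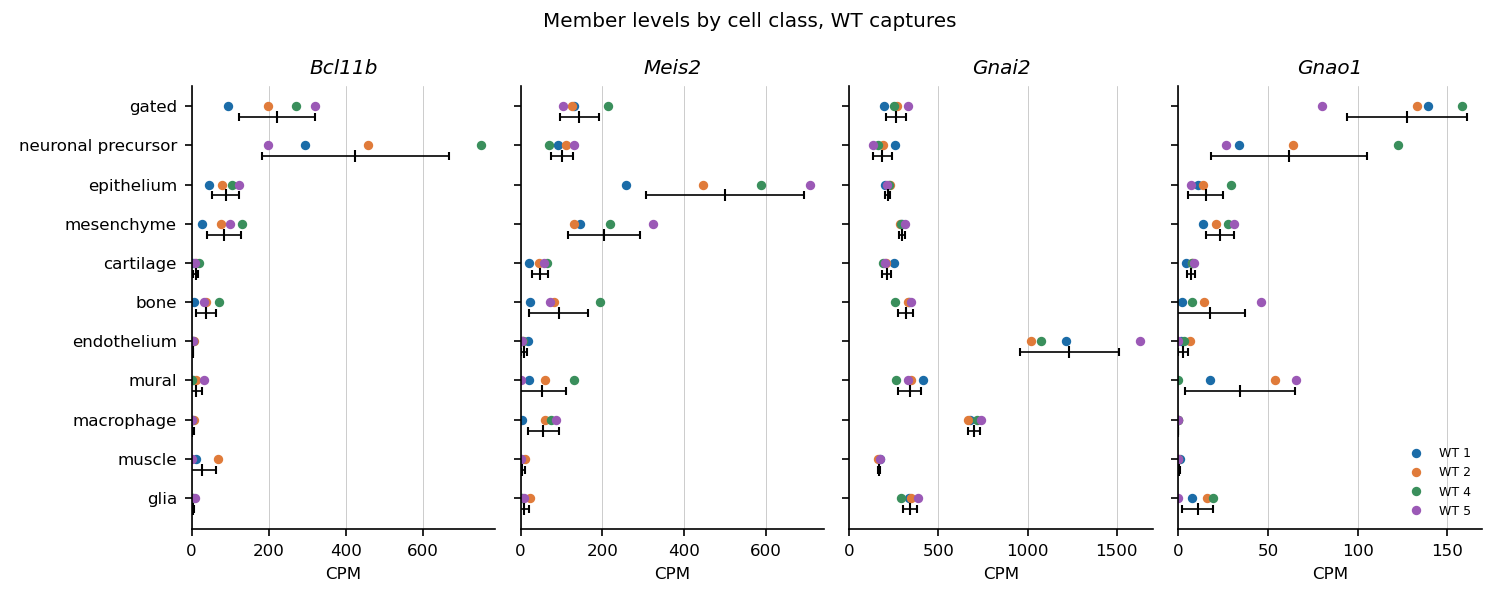
Levels of Bcl11b, Meis2, Gnai2 and Gnao1 in CPM (linear axis) in gated cells and 10 marker-defined classes of the WT captures. Coloured dots are single captures and black bars the mean ± SD over captures. Gnao1 peaks in gated cells at 128 CPM, Bcl11b in neuronal precursors at 425, Meis2 in epithelium at 500 and Gnai2 in endothelium at 1236.

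Several members were often found in the same gated cell. Of the 316 WT gated cells, 127 held at least 3 members: 48 in WT 1, 30 in WT 2, 37 in WT 4 and 12 in WT 5. These are shares of 33.6%, 44.1%, 47.4% and 44.4%, with a mean of 42.4% ± 6.07 (SD, n = 4), and WT 1 was the lowest. By number of members, 16 cells held none, 70 held 1, 103 held 2, 82 held 3, 45 held 4 and 0 held 5 or more. Since Trpc2 had no UMI and Tfap2e only 3 WT gated cells, nearly every such cell drew on Bcl11b, Meis2, Gnai2 and Gnao1. Of Gnai2 cells 59.3% held Gnao1, against 63.0% of all WT gated cells. Of Bcl11b cells 69.8% held Gnai2, against 67.7% of all. Meis2 cells held Gnai2 more often, as given below. These 4 members are widespread, so holding several is not read as a joint vomeronasal signature.

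Most cells with at least 3 members also held Omp or Gng8. Omp or Gng8 was present in 242 of 316 gated cells, a mean share of 69.9% ± 17.7, with Gng8 in 237 cells and Omp in 50. Of the 127 cells with at least 3 members, 108 also held Omp or Gng8 (34.0% ± 7.43 of gated cells) and 19 did not. Gng8 also belongs to vomeronasal neurons, so this overlap cannot tell olfactory from vomeronasal cells. Omp or Gng8 with no member was rare, with 12 cells: 10 in WT 1, 0 in WT 2, 0 in WT 4 and 2 in WT 5 (mean share 3.60% ± 4.16). They are part of the 134 cells that held Omp or Gng8 with fewer than 3 members.

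The count moved with depth. The median depth of WT cells with at least 3 members was 21346.5, 15128, 19305 and 17201.5 UMIs in WT 1, 2, 4 and 5. With each cell thinned to 3000 UMIs, 310 cells entered and 17 held at least 3 members (6, 2, 8 and 1 by capture), a mean share of 5.35% ± 3.32. Cells with Omp or Gng8 and no member then numbered 35, or 9.53% ± 4.71. In the Prokr2Cre libraries 17 of 37 cells in Prokr2Cre 1 (45.9%, exact binomial interval 29.5 to 63.1) and 84 of 219 in Prokr2Cre 2 (38.4%, 31.9 to 45.1) held at least 3 members, against 1 of 37 and 3 of 217 after thinning. Omp or Gng8 was in 15 and 190 of their cells, of which 0 and 1 held no member.

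**Figure D3:**
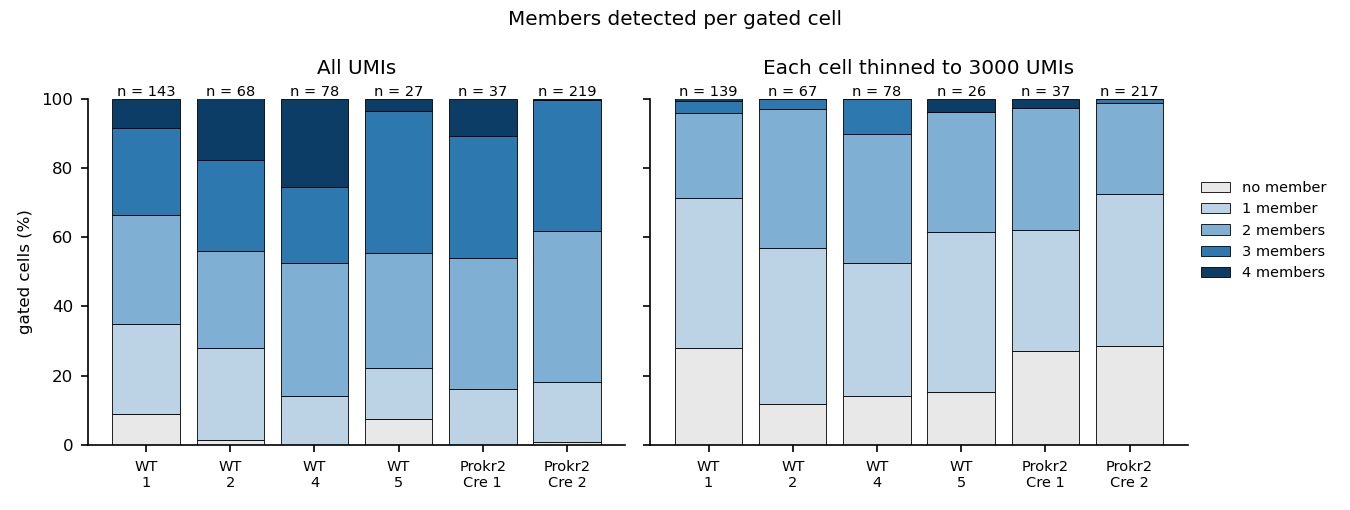
Share of gated cells (%) that held 0, 1, 2, 3 or 4 members in each library, with all UMIs on the left and with each cell thinned to 3000 UMIs on the right. The number of cells stands above each bar. Cells with at least 3 members make up 33.6% to 47.4% of the WT captures with all UMIs and a mean of 5.35% after thinning.

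The most frequent combination in WT gated cells was all 4 of Bcl11b, Meis2, Gnai2 and Gnao1, in 43 cells. Bcl11b with Gnai2 and Gnao1 followed in 36 cells and Bcl11b with Gnao1 in 35. Single members were led by Gnao1 alone (30 cells) and Gnai2 alone (27), while Meis2 alone was seen in 2 cells. Meis2 mostly came with Gnai2: 98 of the 107 Meis2 cells held Gnai2 (91.6%), against 67.7% of all WT gated cells. Gnao1 was in 70 of them (65.4%), against 63.0% of all. After thinning, 30 of 46 Meis2 cells held Gnai2 (65.2%), against 40.3% of all thinned cells, and 11 of 46 held Gnao1 (23.9%), against 34.8% of all.

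The genes whose levels were most like each member's over the 316 WT gated cells were given by Pearson r of log2(1 + UMIs per 10000), among 11757 genes, as a description. The cells share libraries and depth, so these values carry no test. For Gnao1 they were Map1b (r = 0.621), a microtubule-associated protein of growing axons, Fstl5 (0.582) and Rtn1 (0.556). For Bcl11b they were the neuronal differentiation factors Sox11 (0.470) and Ebf3 (0.464), and Epb41 (0.459). Meis2 was most like Zfp36l1 (0.492), Mecom (0.442) and the growth factor Mdk (0.431), and Gnai2 most like Cd63 (0.515), Laptm4a (0.499) and Mdk (0.488), the first 2 of which encode proteins of lysosomal membranes.

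Gated cells with Omp or Gng8 had more Gnao1 and Bcl11b and less Gnai2 than gated cells with neither marker. This comparison was added after the cells had been counted. It set 120, 54, 56 and 12 cells with Omp or Gng8 in WT 1, 2, 4 and 5 against 23, 14, 22 and 15 cells with neither. Of 5259 genes tested, 21.8% were called, 10.7% higher and 11.2% lower. Of the 4 members tested, Gnao1 and Bcl11b were higher, Gnai2 was lower and Meis2 was not called.

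Gnao1 was at 155, 152, 188 and 139.6 CPM in cells with Omp or Gng8 of WT 1, 2, 4 and 5, and at 58.2, 9.56, 53.6 and 22.4 CPM in cells with neither. The sides did not overlap. Gnao1 had 599 UMIs in cells with the markers and 41 in cells with neither, so it could pass the filter on low counts through the first side. Its call is given with that limit. The log2 fold change was 1.94 ± 0.33 (SE, 4 of 4 captures; edgeR quasi-likelihood test, adjusted p = 0.00244), and it was called under 11 of 12 alternatives, the exception being the stricter gate of Gap43 at 3 and Stmn3 at 2 UMIs (adjusted p = 0.365). Prokr2Cre 1 had 198 against 12.2 CPM and Prokr2Cre 2 had 249 against 150 CPM.

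Bcl11b was at 99.2, 215, 307 and 563 CPM in cells with Omp or Gng8 and at 66.9, 95.6, 143 and 89.5 CPM in cells with neither. Each capture was higher on the side with the markers, by much the most in WT 5, and the sides overlapped across captures. The log2 fold change was 1.31 ± 0.33 (SE; edgeR quasi-likelihood test, adjusted p = 0.0163). It was lost without the block (adjusted p = 0.0981), with the stricter gate (0.62) and without WT 4 (0.0503). Prokr2Cre 1 had 204 against 192 CPM and Prokr2Cre 2 had 118 against 78.5 CPM.

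Gnai2 was at 182, 254, 239 and 200.2 CPM in cells with Omp or Gng8 and at 250.3, 363, 293 and 452 CPM in cells with neither, the lower value in every capture lying with the markers. The log2 fold change was -0.65 ± 0.20 (SE; edgeR quasi-likelihood test, adjusted p = 0.0362). Only 4 of 12 alternatives kept that call, and it was lost when any of the captures was left out (adjusted p between 0.0839 and 0.122), with DESeq2 (0.0636) and without the block (0.163). Meis2 was at 131, 136, 213 and 102 CPM against 125, 57.4, 218 and 107 CPM, with a log2 fold change of 0.13 ± 0.25 (SE; edgeR quasi-likelihood test, adjusted p = 0.79) and no common direction. Prokr2Cre 1 and 2 had 221 and 145 CPM of Gnai2 with the markers against 448 and 374 CPM without.

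Neuronal genes and fibroblast genes moved with these sides, though no gene tested under the stricter gate was called by edgeR (384 at an unadjusted p under 0.05). Of 7 pan-neuronal genes, 6 were higher with Omp or Gng8 and 0 lower, such as Elavl3 (log2 fold change 2.45) and Tubb3 (1.90), with a median of 1.87 against -0.04 over all genes. Of 4 cell cycle genes, Ccnb1 (-1.69), Top2a (-1.46) and Cdk1 (-1.25) were lower and Mki67 (-1.09) did not pass, with a median of -1.35. Higher among the olfactory lineage factors were Lhx2 (3.74), Nhlh2 (3.81) and Ebf2 (2.65). The collagens Col1a1, Col1a2 and Col3a1 were lower by -2.31, -2.11 and -2.65, the epithelial gene Epcam was higher by 3.88, and Tfap2b, a relative of Tfap2e, was lower by -3.69. The genes with the largest rises included Stk32a (4.90), Uncx (4.54) and Gfy (4.41), and Olig2, Acsm4 and Cnpy1 had 0 UMIs in cells with neither marker. The largest falls were in Pgm5 (-4.69), Tfap2b, Rspo3 (-3.45) and Sostdc1 (-3.43). The filter on low counts can pass such genes through the side where they are high, so these largest rises and falls are a description. Stk32a, Uncx, Gfy and Sostdc1 lost their calls under the stricter gate, while Olig2, Acsm4, Cnpy1, Pgm5, Tfap2b and Rspo3 were not among the genes tested there. The part of the cells with collagen in the members' differences was not tested beyond the values given here.

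**Figure D4:**
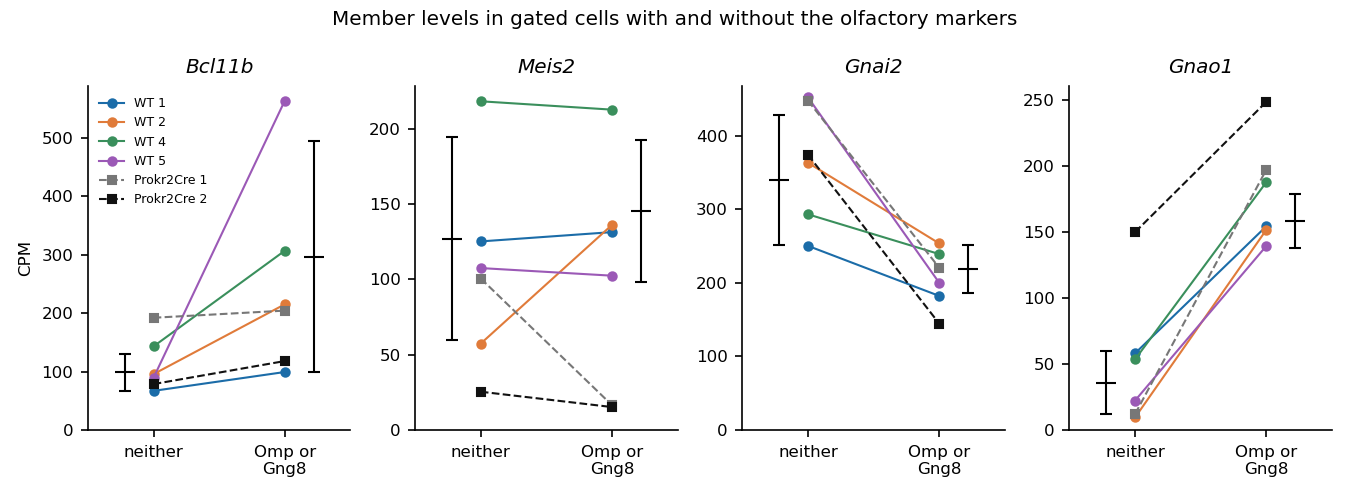
Levels of Bcl11b, Meis2, Gnai2 and Gnao1 in CPM in gated cells with neither Omp nor Gng8 and in gated cells with either. Lines join the sides of 1 library, solid for WT and dashed for Prokr2Cre, and black bars give the mean ± SD of the 4 WT captures. Gnao1 and Bcl11b are higher with the markers and Gnai2 is lower in all 6 libraries, while Meis2 goes both ways in WT captures.

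Cells with at least 3 members were then compared with cells that held Omp or Gng8 and 0 to 2 members, leaving the 6 members, Omp, Gng8, Gap43 and Stmn3 out of the genes tested since they chose the cells. The planned comparison with cells of no member could not be fitted on all UMIs, as only WT 1 had 5 cells on both sides. There were 48, 30, 37 and 12 cells with at least 3 members against 77, 25, 27 and 5. The first side included 19 cells with neither Omp nor Gng8, while every cell on the other side held at least 1 of them. Of 5938 genes, 8.34% were called by edgeR's quasi-likelihood test, 4.55% higher and 3.79% lower. Cells with 3 members were the deeper ones, with median depths of 15128 to 21346.5 UMIs against 6487 to 10268, and when the sides were chosen after thinning no gene was called, with 328 at an unadjusted p under 0.05. Only WT 1 and WT 4, with 6 and 8 cells of at least 3 members, had 5 cells on both sides after thinning and entered that fit. Without the block 0 genes were called as well, and without WT 4 only 42.

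The calls that follow hold only for sides chosen on all UMIs and with the block. Of 4 cell cycle genes 3 were higher in cells with at least 3 members and Ccnb1 did not pass (1.25): Mki67, a marker of dividing cells, by 2.17 ± 0.36 (SE; edgeR quasi-likelihood test, adjusted p = 0.00257), Top2a by 1.83 and Cdk1 by 1.72. Mki67 was at 115 ± 82.2 against 26.1 ± 23.9 CPM (SD, n = 4 captures). Of 7 pan-neuronal genes 3 were lower, Tubb3 by -1.15, Stmn2 by -1.21 and Elavl3 by -0.71, and the other 4 did not pass. Of 12 olfactory lineage factors that passed the filter on low counts 4 were lower (Neurod1 -1.26, Nhlh1 -1.09, Lhx2 -1.05, Ebf1 -0.80) and none was higher. In the comparison of cells with and without Omp or Gng8, 10 of 11 such factors and 6 of 7 pan-neuronal genes were higher with the markers. Since the markers also chose the sides here, these lower values are not read apart from that choice. Of 9 olfactory transduction genes that passed the filter, Stoml3 (-2.11), Gng13 (-1.44), the receptor transporter Rtp1 (-1.36) and Pde1c (-1.00) were lower and 5 did not pass. None of the 4 genes of other cells was called, with collagen differences of 0.02, -0.09 and 0.54.

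Of 328 other vomeronasal genes listed, 5 passed the filter on low counts, too few for a reading beside the 4.55% and 3.79% of all genes. The adhesion gene Ncam2 (-1.34) was lower, and Robo2 (0.04), Nrp2 (-0.71), Kirrel3 (-0.32) and B3gnt2 (-0.31) did not pass. The largest rises were in Runx1, a transcription factor of blood and sensory lineages with 156 UMIs against 1, Sult1e1 (4.25), Mecom (3.76) and Pawr (3.42). The largest falls were in Fam183b (-2.64), Tmem74bos (-2.59), Hs6st3 (-2.33) and the dynein light chain Dynlrb2 (-2.06). Sult1e1 had a log2 fold change of -0.11 when the sides were chosen after thinning. Over all alternatives run, that one included, Fam183b stayed at -2.35 or below, Dynlrb2 at -1.66 or below and Riiad1 (-1.91) at -1.59 or below, and Prkg1 (2.91), a cyclic GMP-dependent kinase, stayed at 2.07 or above, but none of the 4 was called after thinning. Pawr was at 1.03 and Mecom at 1.55 after thinning, and Hs6st3 at -0.00095 with at least 2 members as the rule.

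The G protein subunits that mark the 2 vomeronasal classes were each present without the other in many cells. In WT gated cells 127 held both Gnai2 and Gnao1 (52, 31, 35 and 9 by capture), 87 held Gnai2 alone (32, 21, 21 and 13), 72 held Gnao1 alone (40, 12, 18 and 2) and 30 held neither. After thinning to 3000 UMIs 34 of 310 cells held both. Both were found in 12 of 37 cells of Prokr2Cre 1 and in 133 of 219 cells of Prokr2Cre 2 (60.7%).

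**Figure D5:**
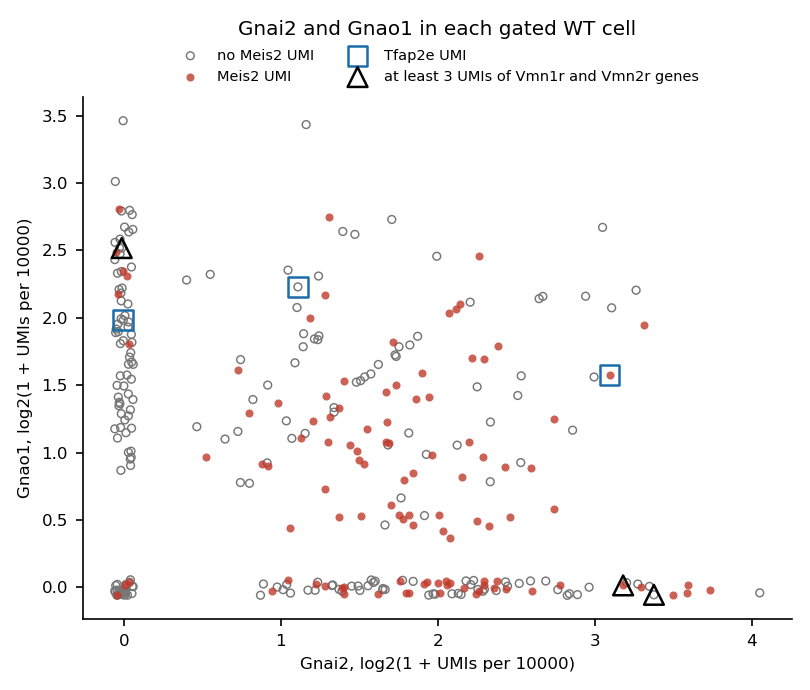
Gnai2 (horizontal) and Gnao1 (vertical) in each of the 316 WT gated cells as log2(1 + UMIs per 10000), with points moved by up to 0.06 at random so that equal values can be seen. Red points held a Meis2 UMI, blue squares a Tfap2e UMI and triangles at least 3 UMIs of vomeronasal receptor genes. Meis2 cells lie mostly at Gnai2 values above 0 (98 of 107), and all 3 Tfap2e cells lie above 0 for Gnao1.

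Meis2 was detected in 34 of 87 cells with Gnai2 and no Gnao1 (39.1%) and in 6 of 72 with Gnao1 and no Gnai2 (8.33%). In the Gnai2 cells of WT 1, 2, 4 and 5 it was in 14 of 32, 5 of 21, 10 of 21 and 5 of 13. In the Gnao1 cells it was in 2 of 40, 2 of 12, 2 of 18 and 0 of 2. The Gnai2 cells were also the deeper, with a median of 10960 UMIs against 8395. In a comparison added after the cells were counted, its level was 179.9, 81.0 and 282 CPM in the Gnai2 cells of WT 1, 2 and 4, against 5.06, 85.3 and 12.6 CPM in the Gnao1 cells. In WT 2 the sides were about level. WT 5, with 2 Gnao1 cells, did not enter the fit. These levels rest on 92, 15 and 64 UMIs of Meis2 in the Gnai2 cells and on 2, 8 and 2 in the Gnao1 cells, so Meis2 passed the filter on low counts through the Gnai2 side and its fold change is given as a description with no test. The log2 fold change was 3.18 ± 0.80 (SE), higher in 2 of 3 captures, and ran from 2.23 without WT 1 to 4.98 without WT 2. Over all genes tested between these cells, 30.2% of 3814 were called, 14.3% higher and 15.9% lower. In the Prokr2Cre libraries 7 of 20 Gnai2 cells held Meis2 against 0 of 5 Gnao1 cells in library 1, and 4 of 20 against 0 of 61 in library 2.

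Bcl11b was at 46.9, 178 and 216 CPM in Gnai2 cells and at 192, 171 and 348 CPM in Gnao1 cells of WT 1, 2 and 4. Its log2 fold change of -0.82 ± 0.36 (SE) did not pass (edgeR quasi-likelihood test, adjusted p = 0.121), and it ran from -0.18 without collagen cells, -0.27 with the stricter gate and -0.30 without WT 1, none of them called, to -1.14 with the wider gate and -1.13 without WT 2, both called lower (edgeR adjusted p = 0.00327 and 0.0052). Gng8 was lower in Gnai2 cells by -1.98 ± 0.23 (SE; edgeR quasi-likelihood test, adjusted p = 0.000941).

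The Gnai2 cells were also the cells with fibroblast transcripts. A UMI of Col1a2 or Col3a1 was found in 69 of the 87 Gnai2 cells and in 6 of the 72 Gnao1 cells, and Omp or Gng8 in 40 of 87 against 66 of 72. Among cells with Omp or Gng8, Meis2 was in 15 of 40 Gnai2 cells and 6 of 66 Gnao1 cells. Among cells with no collagen UMI it was in 4 of 18 and 4 of 66, too few for Meis2 to be tested. Col3a1 was higher in Gnai2 cells by 5.03 and Col1a2 by 4.47. The 3 cell cycle genes that passed the filter on low counts were higher as well, Top2a by 4.94 and Cdk1 by 4.46. Mki67 had 135 UMIs in Gnai2 cells against 3 in Gnao1 cells, so it passed that filter through the Gnai2 side. The filter can pass the collagens and the other cell cycle genes in this way too, so these rises are a description with no test. Of 7 pan-neuronal genes 6 were lower (Dcx -3.07, Elavl3 -2.21). The part of these cells in the Meis2 difference was not tested.

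Partners of the alpha subunits went both ways, beside 14.3% of all genes called higher and 15.9% lower. Of 9 G protein partners tested, 4 did not pass, 2 were higher in Gnai2 cells, Gnb2 (1.32) and the stimulatory alpha subunit Gnas (1.09), and 3 were lower, Gnb1 (-1.55), Gng3 (-2.52) and Gng13 (-3.31). Gnal, the alpha subunit of olfactory neurons, was lower by -4.80. Mef2b (-4.95), Stk32a (-4.83) and the calcium-binding Calb2 (-4.82) were among the genes with the largest falls. The filter on low counts can pass genes like these through the side where they are high, so their fold changes are a description. Ube2c, a gene of dividing cells, was higher by 6.47, the chemokine Cxcl14 had 278 UMIs in Gnai2 cells against 1, and Cdc42ep5, Fbln1, Sulf1 and Osr1 had 0 UMIs in the Gnao1 cells.

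Related genes in gated against other cells stand beside 16.0% of all genes called higher and 16.1% lower. Of 13 G protein partners, 5 were higher in gated cells (Gng13 6.95, Gng3 4.78, Gnaz 1.82, Gnb1 0.94, Gng2 0.54), 5 were lower (Rgs16 -1.25, Gnb4 -0.78, Gnai3 -0.49, Gnas -0.43, Gnb2 -0.43) and 3 did not pass, with a median of -0.20. Of 8 relatives of the 3 transcription factors, Pbx3 (0.63) was higher, and Tfap2a (-1.67), Tfap2b (-1.27), Tfap2c (-1.88) and Meis1 (-0.50) were lower. The other 3 relatives did not pass. Of 328 other vomeronasal genes listed, nearly all of them receptors, 9 passed the filter on low counts: Calr4 (5.25), B3gnt2 (1.59), Ncam2 (1.42) and Robo2 (0.55) were higher and the other 5 did not pass the test. The filter can pass a gene through the gated side alone, so nothing is read from that count. All 15 olfactory lineage factors were tested and 13 were higher, among them Lhx2 (4.21), Insm1 (3.78) and Nhlh1 (4.78).

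The receptors of vomeronasal neurons had few UMIs in gated cells. Vmn1r genes together had 16, 9, 6 and 2 UMIs and Vmn2r genes 1, 8, 13 and 1 UMIs in the gated cells of WT 1, 2, 4 and 5. In the same cells the odorant receptor genes had 1625, 298, 517 and 481 UMIs. Cells outside the gate, which are far more numerous, held UMIs of these genes too over the 6 libraries: Vmn1r43 had 6 UMIs in gated and 340 in other cells, Vmn1r54 had 8 and 336, Vmn2r57 had 1 and 114, Vmn1r4 had 13 and 98, and Vmn2r29 had 8 and 64. The single cells that follow were picked after their values were seen. A WT 4 cell of 8241 UMIs held 12 UMIs of Vmn2r68, a V2R gene, with 4 of Gnao1, 7 of Robo2, 6 of Nrp2 and 7 of Ncam2. It held 28 UMIs of Gap43 and 4 of odorant receptor genes, and none of Gnai2, Meis2, Bcl11b, Gng8 or Omp. A WT 1 cell of 17808 UMIs held 3 UMIs of Vmn1r184 and 2 of Vmn1r90, both V1R genes, with 31 of Meis2, 15 of Gnai2, 4 of Bcl11b, 18 of Nrp2, 10 of Gng8, 7 of Col1a2 and 4 of odorant receptor genes, and none of Gnao1. A pair of WT 2 cells held 5 and 2 UMIs of Vmn1r54, a V1R gene, with 10 and 7 of Gnai2, none of Gnao1 or Meis2, and 6 of Col1a2 each. They also held 3 and 20 UMIs of Robo2 and 3 of Nrp2 each. Both met the gate at its lowest counts, 2 UMIs of Gap43 and 1 of Stmn3. A Prokr2Cre 2 cell held 3 UMIs of Vmn2r1 with both alpha subunits, 16 UMIs of Gnai2 and 9 of Gnao1, and with 5 of Meis2, 18 of Gng8 and 14 of odorant receptor genes. Pairings of receptor class and alpha subunit went both ways in these picked cells. Outside the gate, Gnai2 was in 21694 of 28249 WT cells and Gnao1 in 3392, so holding Gnai2 without Gnao1 marks no pairing by itself. The WT cells held the subunit that the receptor's class is known to use. A Prokr2Cre 2 cell with 2 UMIs of Vmn1r206, a V1R gene, instead held 13 UMIs of Gnao1 and none of Gnai2 or Meis2. That cell also held olfactory transcripts, 82 UMIs of odorant receptor genes, 45 of Gng8, 5 of Omp, 3 of Gnal and 3 of Cnga2. Another Prokr2Cre 2 cell, with 2 UMIs of Vmn1r209, held 3 of Gnao1 and 1 of Gnai2, with 33 UMIs of odorant receptor genes and 3 of Omp.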

How the data were processed

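Raw UMI counts per gene and cell barcode, which the authors deposited without normalization, were used. Per the file headers they were made with Cell Ranger 6.0.1 (WT 1), 7.0.0 (WT 2 to 5) and 6.1.2 (Prokr2Cre). The submitters' processing notes name Cell Ranger 4, Seurat 4.3.0 and mm10, and the annotation release is not given in the sources used here. A cell was kept if it had 500 genes or more and no more than 10% of its UMIs from mitochondrial genes. Doublets stayed in, and removing them is an alternative. Counts were summed per capture and side, over captures with at least 5 cells on both sides, and 30339 genes entered the fits with edgeR 4.0.16 (R 4.3.3; filterByExpr for low counts, TMM, quasi-likelihood, Benjamini-Hochberg, threshold 0.05), with the capture as a block since both sides come from the same captures, and with DESeq2 1.42.0 as an alternative. The fits were tested on simulated data. Shares were also computed after thinning cells to 3000 UMIs (Python 3.11.15, numpy 2.4.6, scipy 1.17.1; doublets with Scrublet in scanpy 1.11.5). The members and gene lists were chosen with earlier results of these data known. The text names the members, genes of the fixed lists, the 10 genes with the largest called rise and fall, changed the same way in every capture, and the 3 genes most like each member.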

Additional observations from a re-analysis of the deposited data

Results flagged for a closer look

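Among 38 sets of WT values looked at, 3 had 1 capture far from the others, and chance alone marks about 1 in 20 sets that can be marked. WT 1 was that capture each time. The 38 include sets that could not be marked, such as the Trpc2 levels, listed for only 2 captures. Its gated cells held Tfap2e at 1.86 CPM, against 0 in WT 2, WT 4 and WT 5, and 2.10% of them held a UMI of Trpc2 or Tfap2e, against 0% elsewhere. Both values rest on the same 3 cells. After thinning to 3000 UMIs, 16.5% of its gated cells held Omp or Gng8 and no member, against 6.41% to 7.69% in the other 3 captures.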

How the results depend on the processing

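Of the values that answer a comparison, 132 stayed the same under an alternative and 29 moved. Of the fold changes of single genes, 1006 kept their side of the threshold, 92 lost it, 7 gained it and 3 changed sign. The sides of each comparison come from the same captures, so the replicate block is part of every fit, and without it the calls fell from 4989 to 2057 (gated against other cells), from 495 to 0 (at least 3 members; 700 at an unadjusted p under 0.05), from 1149 to 307 (Omp or Gng8 against neither) and from 1152 to 489 (Gnai2 against Gnao1 cells). With no filter on low counts the last 3 gave 1064, 2329 and 2426 calls, and the share of higher calls rose from 54.5% to 69.7% and from 48.8% to 66.1% for the first 2 of these. Leaving out 1 capture gave 3287 to 5588, 42 to 564, 649 to 1153 and 631 to 1671 calls. The lowest counts came without WT 2 in the first and without WT 4 in the others, and the comparison of at least 3 members had 198 calls without WT 1 and 278 without WT 2. That comparison had 308 calls with DESeq2 and 194 with at least 2 members, and 0 with cells chosen after thinning, also against cells with no member (226 of 2957 genes at an unadjusted p under 0.05). With the gate at 1 UMI of both genes there were 1952 and 1795 calls for the markers and the alpha subunits, and with the stricter gate 0 (384 at an unadjusted p under 0.05) and 309. The alpha subunit comparison had 137 calls without collagen cells and 424 with Omp or Gng8 on both sides. The share of cells with at least 3 members was 5.35% after thinning and 23.0% with at least 2 UMIs of each member, and that of Omp or Gng8 with no member 9.53% after thinning. Without collagen cells the gated means were 367 CPM for Bcl11b, 199.7 for Gnai2 and 194 for Gnao1. Between cells with and without the markers, Meis2 turned from 0.13 to -0.24 (gate at 1 UMI), and ranged from -0.014 (without WT 2) to 0.29 when 1 capture was left out. In the comparison of at least 3 members, Sult1e1 turned from 4.25 to -0.11 with cells chosen after thinning. The cause of these changes was not tested. The fits of Trpc2 or Tfap2e cells and of Omp or Gng8 cells with no member could not be run with all UMIs, since at most 1 capture had 5 cells on both sides. Of the WT captures used, Trpc2 was listed for WT 1 and WT 4 only, and depth limits what can be said of Tfap2e and of co-detection. The comparisons of the markers and of the alpha subunits, the 0 to 2 members on the other side, the sets without collagen cells and those with Omp or Gng8 on both sides were chosen after seeing the data.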
